A study of Gallus gallus with 8 samples.

Results

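Peaks of the transcription factor Nrf2 were examined on the chicken (Gallus gallus) sequences that have no place on a finished chromosome. The galGal6 assembly holds such scaffolds in 2 classes. Chromosome-assigned scaffolds are known to belong to a given chromosome but have no position on it. Un scaffolds are tied to no chromosome. Members were selected by sequence name alone: a peak was included when the name of its sequence held the low line character (_). This took 5642 of the 66669 peaks in the 8 deposited lists (8.46%), of which 219 lay on 33 chromosome-assigned scaffolds and 5423 on 187 Un scaffolds. Joining overlapping and abutting peaks gave 1580 regions, 57 on chromosome-assigned and 1523 on Un scaffolds, of 30246 in the whole series.

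The study used CUT&Tag, in which an antibody brings a transposase to the bound protein so that the DNA beside it is cut and tagged, on liver of broilers (meat-type chickens). There were 4 HT samples, whose treatment label is high temperature and whose description is High. There were 4 PT samples, whose treatment label is phloretin, a plant polyphenol, while their description reads Normal. A further field gives high-temperature treatment for all 8 samples, so what PT birds received cannot be settled from the labels. Strain, age and sex of the birds, the dose of phloretin, and whether each sample is a separate bird are not given in the labels. Liver identity could not be checked, since peak lists hold no expression values. Each sample has 1 list, with 9437 to 11141 peaks in HT and 5120 to 7302 in PT. The lists hold no read counts, so sequencing depth is unknown and no counting error can be given.

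Nrf2 is a basic leucine zipper factor that is held back by Keap1 and, once released by oxidative or electrophilic stress, binds antioxidant response elements with small Maf proteins. In liver it is known for switching on glutathione, quinone-reducing and other detoxification genes. Scaffolds without a place are as a rule what an assembler could not order: satellite and other repeats, gene families with near-identical copies, and parts of the female-specific W chromosome and of microchromosomes, the smallest chromosomes of birds. Reads from near-identical copies can be assigned to more than 1 place, and how the authors treated such reads and duplicate reads is not given in the sources used here. No galGal6 sequence or annotation was used here, so no genes, repeats or scaffold lengths are named, and a scaffold is described only as far as its last peak.

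Lists of the same group shared peak ends on these scaffolds, so they may not be independent. Where 2 lists each put 1 peak into an Un region, the peaks began and ended at the same bases in 41.6% to 51.0% of the cases between HT lists and in 61.2% to 83.3% between PT lists, against 0% to 0.521% across groups. On chromosome-assigned scaffolds 52 of 98 such cases were identical within HT, 134 of 178 within PT and 0 of 122 across groups. Placed chromosomes showed the same sharing, at 56.4% to 72.8% within HT, 59.8% to 83.0% within PT and 0.111% to 0.568% across groups. The p-values below therefore compare these lists and not birds.

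Scaffolds assigned to W carried peaks almost solely in PT. The W chromosome is carried by female birds only. These 19 scaffolds had 1, 0, 0 and 0 peaks in the HT lists, against 26, 24, 26 and 19 in the PT lists. All 4 HT lists lay below every PT list, and 95 of the 96 peaks belonged to PT. The difference of HT minus PT means was -23.5 peaks per list (0.25 ± 0.5 in HT and 23.75 ± 3.30 in PT, SD, n = 4 lists each; exact two-sided permutation p = 0.02857, adjusted p = 0.0333 by Benjamini-Hochberg over 14 tests). With 70 relabellings, 0.02857 is the smallest p that 4 against 4 lists can give. The difference was -18 peaks with the same number of peaks from every list and -10.75 peaks in the highest-scoring 50% of each list (exact two-sided permutation p = 0.02857 in both).

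The placed W chromosome went the same way with a smaller contrast, at 45.5 ± 3.79 peaks per HT list and 77.5 ± 1.73 per PT list (SD, n = 4 each), a ratio of 0.587. Of all peaks on W, placed or not, 0.546% lay on scaffolds in HT and 23.5% in PT. The sex of the birds is not in the labels, and its part in this result was not tested. The only scaffold assigned to Z, the chromosome that males carry as a pair, had 1 peak in each of the 8 lists, while placed Z had 1125 ± 79.1 peaks per HT list and 452.25 ± 72.6 per PT list.

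The W-assigned peaks recurred from list to list within PT. They merged into 29 regions, of which 17 were held by all 4 PT lists and no HT list. In 12 of the 29 the peak ends were identical across the 4 PT lists. Of all 30246 regions of the series, 2066 (6.83%) were held by PT alone in this way, and 4003 had identical peak ends in at least 4 lists. On placed W 36 of 131 regions were held by PT alone. A peak in every PT list and none in HT was found on 13 of the 19 scaffolds, beside 24 of the 187 Un scaffolds. Only scaffolds with a peak are counted, and 18 of these 19 had peaks in PT lists alone. chrW_NW_020109823v1_random had the most, with 3 peaks in each PT list and 0 in each HT list. chrW_NW_020109808v1_random had 2 peaks in each PT list and 0 in each HT list. The single HT peak lay on chrW_NW_020109817v1_random in HT list 1, on a scaffold where each PT list had 1 peak.

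**Figure D1:**
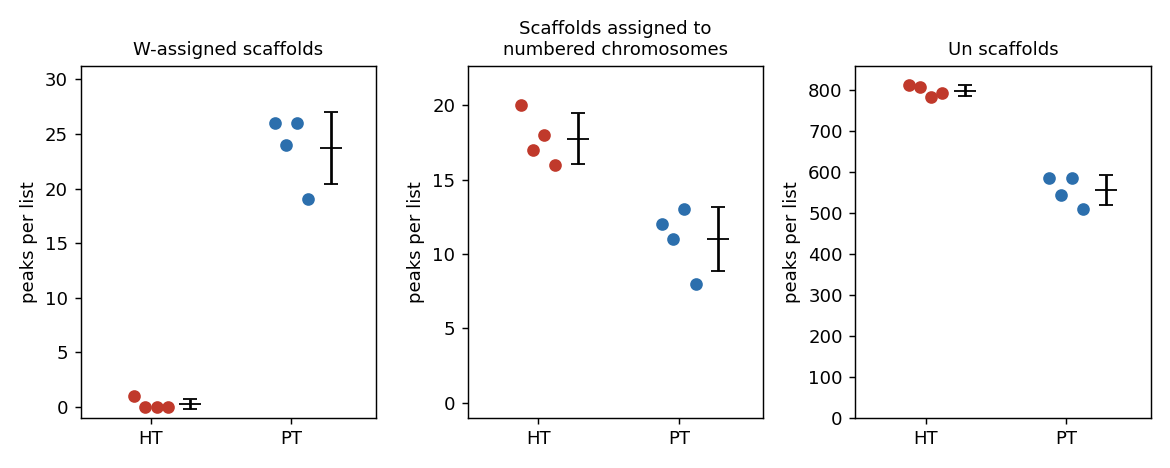
Peaks per list on scaffolds assigned to W, on scaffolds assigned to numbered chromosomes and on Un scaffolds, in HT and PT; points are lists, and the black bar gives the mean with its SD (n = 4 lists). On W-assigned scaffolds the HT lists had 0 or 1 peak and the PT lists 19 to 26, while in the other 2 panels every HT list lies above every PT list.

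Scaffolds assigned to numbered chromosomes had more peaks in HT, by the same ratio as whole lists. The 13 scaffolds of this kind had 20, 17, 18 and 16 peaks in the HT lists, against 12, 11, 13 and 8 in the PT lists. The groups did not overlap, and the difference of means was 6.75 peaks per list, a ratio of 1.61 (exact two-sided permutation p = 0.02857, adjusted p = 0.0333). Whole lists had the same ratio of 1.61, at 10281 ± 789 peaks in HT and 6386 ± 916 in PT (SD, n = 4 each). With equal list lengths the difference was 3.75 peaks (exact two-sided permutation p = 0.02857). A peak in all 4 HT lists and no PT list occurred on 5 of these scaffolds, and the converse on 0. Those 5 carried a single region each and belonged to chromosomes 3, 6, 13 and 25. On the 187 Un scaffolds the counts of these kinds were 25 and 24.

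The scaffolds of chromosome 1 made up most of the peaks shared by both groups. chr1_NW_020109743v1_random had 5, 4, 4 and 4 peaks in the HT lists, against 3, 3, 3 and 4 in the PT lists, and 3 of its 5 regions were held by all 8 lists. chr1_NW_020109742v1_random had 2 peaks in each HT list, against 3, 2, 3 and 2 in the PT lists, and both of its regions were held by all 8 lists. Over the 4 scaffolds of chromosome 1 the total was 27 peaks in HT and 27 in PT, with no separation of the groups.

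Chromosome 16 carries the major histocompatibility complex and the ribosomal RNA genes of the chicken. Its scaffold chr16_NW_020109758v1_random had 4, 3, 3 and 1 peaks in the HT lists, against 3, 3, 4 and 0 in the PT lists, so the groups overlapped. Of the 9 regions on it, 1 was held by all 4 HT lists and no PT list, and 0 were held by all 8. On chr6_NW_020109751v1_random there were 2 peaks in each HT list, against 1, 1, 1 and 0 in the PT lists.

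The 33 chromosome-assigned scaffolds as a single class joined the W-assigned scaffolds with those of the numbered chromosomes and of Z. On the 13 scaffolds of numbered chromosomes the HT mean was higher on 10 and lower on 3. The class had 22, 18, 19 and 17 peaks in the HT lists, against 39, 36, 40 and 28 in the PT lists, a difference of -16.75 peaks (exact two-sided permutation p = 0.02857, adjusted p = 0.0333). Without any 1 of the HT lists the exact permutation p for peaks was 0.0571, with differences of -17.75 to -16.1 peaks. The HT lists left still lay below every PT list. Peaks lay on 11 to 13 of the scaffolds per HT list and on 20 to 25 per PT list. Without the scaffolds assigned to W or Z the first difference turned to 6.75 peaks and that in scaffolds with a peak from -11.5 to 5.25. As a share of the list, the class came to 0.186 ± 0.0323% in HT and 0.569 ± 0.117% in PT (SD, n = 4 each; exact two-sided permutation p = 0.02857, adjusted p = 0.0333), and without W and Z that difference was -0.00117 points (exact permutation p = 0.943).

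Un scaffolds held most of the peaks without a place, and HT lists had more of them. They carried 812, 807, 784 and 794 peaks in the HT lists, against 585, 545, 585 and 511 in the PT lists. Every HT list exceeded every PT list, by 242.75 peaks in the mean and a ratio of 1.44 (799.25 ± 12.7 in HT and 556.5 ± 35.7 in PT, SD, n = 4 each; exact two-sided permutation p = 0.02857, adjusted p = 0.0333). HT lists were longer as a whole, by the ratio of 1.61 given above, and when every list was limited to its 5120 best-scored peaks the difference fell to 73.25 peaks and lost its call (exact permutation p = 0.114). As a share of the list, Un peaks came to 7.81 ± 0.581% in HT and 8.84 ± 1.33% in PT (SD, n = 4 each), a difference of -1.04 points that did not pass the test (exact two-sided permutation p = 0.229, adjusted p = 0.246) and turned to 1.43 points with equal list lengths.

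Un scaffolds as a class had more peaks per Mb than placed chromosomes as a class. Counted up to the last peak of each sequence, Un scaffolds had 67.0 ± 1.064 peaks per Mb in HT and 46.7 ± 2.996 in PT, and placed chromosomes 9.02 ± 0.752 in HT and 5.53 ± 0.862 in PT (SD, n = 4 lists each). Only scaffolds with a peak enter this value and each ends at its last peak, which raises the density of short scaffolds. The 11 Un scaffolds with the most peaks, which together reach over 10.1 Mb and were selected by peak number, had 58.0 ± 0.973 peaks per Mb in HT and 38.9 ± 2.64 in PT, beside 13.3 ± 0.789 in HT and 6.88 ± 0.918 in PT on chromosomes 11 to 33. The ranges overlapped when sequences were taken singly. Placed chromosome 33 had 42.4 peaks per Mb in HT and 21.7 in PT, and chromosome 30 had 36.6 in HT and 19.0 in PT. chrUn_NW_020110163v1 had 23.1 in HT and 13.6 in PT, and chrUn_NW_020110160v1 20.6 in HT and 12.9 in PT, the lowest of the 11.

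A small number of scaffolds took most of the Un peaks. The 11 scaffolds with a mean of at least 5 peaks over the 8 lists held 72.0% of them, and only these could be tested singly. Of the 45 sequences that reached this mean, placed chromosomes included, 91.1% were called higher in HT and 2.22% lower in HT, at an adjusted p of at most 0.05 in an exact two-sided permutation test of peak number with Benjamini-Hochberg adjustment over all 45. Among the 11 Un scaffolds 8 were called higher, a share of the 11 below that background, and 0 were called lower (0 also at an unadjusted p of at most 0.05, and 8 higher). With equal list lengths 0 of them were called higher. A sequence can pass the adjustment only where most tested sequences reach the smallest p, so this count also depends on the other sequences. Calls on placed chromosomes were not counted at that length.

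The contrast differed widely in size among these scaffolds. Calls rest on the number of peaks and take no account of list length, and whole lists had a ratio of 1.61. A ratio below that means fewer peaks in HT relative to the mean list length. chrUn_NW_020110162v1 had 108, 106, 110 and 109 peaks in the HT lists, against 49, 48, 50 and 38 in the PT lists, a ratio of 2.34. chrUn_NW_020110158v1 had 29, 28, 29 and 29 peaks in the HT lists, against 11, 10, 11 and 10 in the PT lists, a ratio of 2.74. chrUn_NW_020110164v1 had 123, 124, 119 and 123 peaks in the HT lists, against 89, 80, 83 and 68 in the PT lists, a ratio of 1.53. In all 3 the lists of the groups did not overlap, and each had an adjusted p of 0.0306 in the exact permutation test.

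The contrast was smaller on the scaffold with the most peaks. chrUn_NW_020110165v1 had 111, 111, 110 and 107 peaks in the HT lists, against 98, 98, 102 and 92 in the PT lists, a ratio of 1.13 with an adjusted p of 0.0306 in the exact permutation test. chrUn_NW_020110167v1 had 98, 100, 87 and 90 peaks in the HT lists, against 77, 69, 80 and 69 in the PT lists, a ratio of 1.27 with the same adjusted p in the exact permutation test. Both ratios were below the 1.61 of whole lists. On chrUn_NW_020110161v1 the HT lists had 45, 44, 47 and 49 peaks and the PT lists 46, 39, 35 and 38, so the groups overlapped and the scaffold was not called (exact permutation test, adjusted p = 0.0877).

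The other tested scaffolds had fewer peaks. chrUn_NW_020110159v1 (22 ± 2.45 in HT, 14.25 ± 2.36 in PT), chrUn_NW_020110163v1 (20.75 ± 2.63 in HT, 12.25 ± 1.89 in PT) and chrUn_NW_020110152v1 (11.75 ± 2.22 in HT, 3 ± 0.816 in PT) were called higher, each with an adjusted p of 0.0306 in the exact permutation test (SD, n = 4 each). chrUn_NW_020110160v1 (14 ± 2.31 in HT, 8.75 ± 2.75 in PT) and chrUn_NW_020109838v1 (6.5 ± 1 in HT, 6 ± 0.816 in PT) were not called. The ratio of 3.92 on chrUn_NW_020110152v1 was the highest of the 11. Its PT mean of 3 lay below the minimum mean for testing, which is taken over the lists of both groups. The scaffold thus reached that minimum only through its HT lists, and such a selection favours a high ratio and a call.

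**Figure D2:**
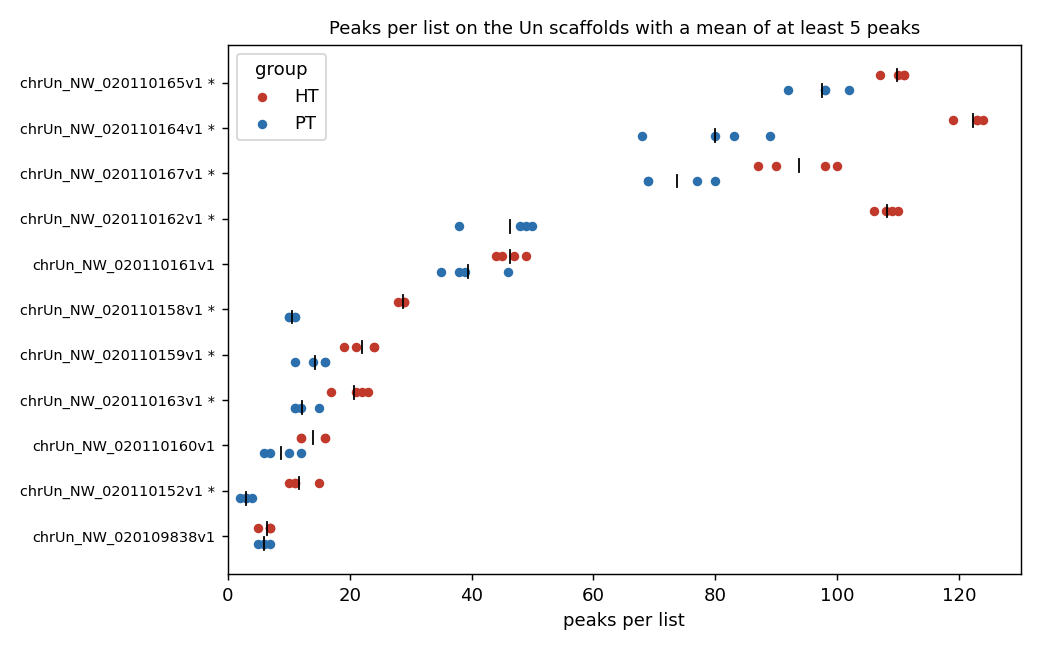
Peaks per list on the 11 Un scaffolds with a mean of at least 5 peaks, HT above PT in each row; points are lists, black ticks the group means, and an asterisk marks an adjusted p of at most 0.05. The HT and PT points are far apart on chrUn_NW_020110162v1 and chrUn_NW_020110158v1 and overlap on chrUn_NW_020110161v1, chrUn_NW_020110160v1 and chrUn_NW_020109838v1.

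The remaining 176 Un scaffolds were short as far as peaks reach, with a median last peak at 7134 bp. They held 220, 215, 212 and 214 peaks in the HT lists, against 170, 160, 175 and 154 in the PT lists, a ratio of 1.31. Among all 187 Un scaffolds the HT mean was higher on 117, lower on 54 and equal on 16. A peak was found on 126 to 129 Un scaffolds per HT list and on 110 to 119 per PT list, a difference of 13.75 scaffolds (exact two-sided permutation p = 0.02857, adjusted p = 0.0333) that turned to -2 (exact permutation p = 0.686) with equal list lengths.

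Some Un scaffolds had peaks in the lists of a single group only. A peak in all 8 lists was found on 58 of the 187, in all 4 HT lists and no PT list on 25, and in all 4 PT lists and no HT list on 24. Of the 33 chromosome-assigned scaffolds these were 3, 5 and 13, and each of the 34 placed chromosomes had a peak in every list. The 25 scaffolds held 41 regions in all and the 24 held 53, and the part of such small region numbers was not tested. The PT set was the denser of these sets: 12 of its 24 scaffolds had at least 2 peaks in every PT list, against 2 of the 25 HT scaffolds. The 24 scaffolds carried 50, 49, 50 and 47 peaks in the PT lists, and the 25 HT scaffolds 29, 32, 31 and 33 peaks in the HT lists. No test was made of this contrast, which was noticed in the data.

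chrUn_NW_020110136v1 had the most peaks of these. It carried 0 peaks in each HT list, against 4, 4, 5 and 4 in the PT lists, spread over 5 regions up to 23685 bp. chrUn_NW_020110151v1 had 0 peaks in each HT list, against 4, 4, 4 and 3 in the PT lists. In the other direction, chrUn_NW_020110153v1 had 2 peaks in each HT list and 0 in each PT list. Both directions also occurred on scaffolds that all lists marked: chrUn_NW_020110096v1 had 1 peak in each HT list and 4 in each PT list, while chrUn_NW_020110020v1 had 4 in each HT list and 1 in each PT list. These 5 scaffolds were named after their values were seen. Lowering the minimum to a mean of 2 peaks let 43 scaffolds be tested, among 77 sequences. That mean is taken over the lists of both groups, so a scaffold can reach it through the group where it is high. chrUn_NW_020110136v1 did so with means of 0 in HT and 4.25 in PT, and chrUn_NW_020110020v1 with 4 in HT and 1 in PT. Calls on such scaffolds are favoured by the selection. Of the 43, 19 were called higher and 3 lower in HT, the 3 being chrUn_NW_020110136v1, chrUn_NW_020110096v1 and chrUn_NW_020110041v1 (each adjusted p = 0.0393 in the exact permutation test). At the minimum of 5, 33 of the 34 placed chromosomes were called higher and 1 lower. The share of the 43 scaffolds called higher was thus below that of placed chromosomes. The minimum differed between these shares, and the adjustment ran over 77 and 45 sequences. Most of the 43 scaffolds also had far fewer peaks than a placed chromosome, and the part of peak number in this was not tested.

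**Figure D3:**
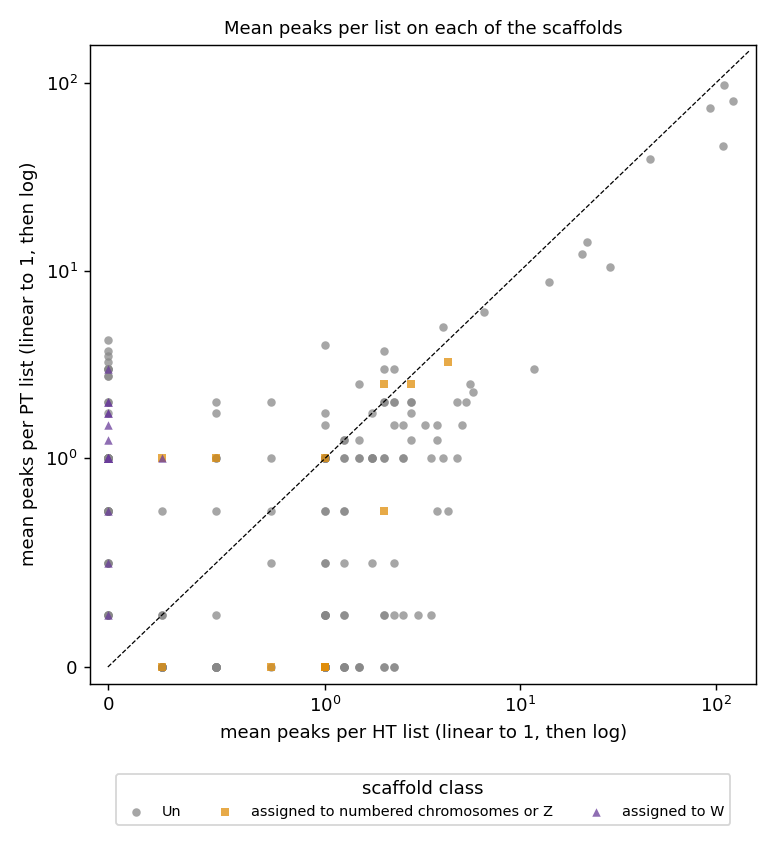
Mean peaks per HT list (horizontal) against mean peaks per PT list (vertical) for the 220 scaffolds, linear up to 1 and logarithmic above; the dashed line marks equal means. The 19 W-assigned scaffolds lie at or near 0 in HT, and the 11 Un scaffolds with the most peaks all lie below the line.

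Occupancy by region gave the same division within scaffolds. Of the 1523 Un regions, 301 (19.8%) were held by all 4 HT lists and no PT list, 170 (11.2%) by all 4 PT lists and no HT list, and 151 (9.91%) by all 8 lists. Over all 30246 regions of the series the same shares were 14%, 6.83% and 2.41%. A single list held 23.6% of the Un regions and 57.7% of those on placed chromosomes. With equal list lengths 176 Un regions were held by HT alone and 139 by PT alone. The same counts over all regions were not made at that length. In 565 Un regions no 2 lists gave the same peak ends, and of these 29 were held by HT alone, 3 by PT alone and 5 by all 8. Over all 19319 such regions of the series the counts were 175, 23 and 22. Regions of a single list made up 359 of the 565 and 16922 of the 19319. They cannot share ends and can be of none of these kinds. This alternative was chosen after seeing the data.

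On chromosome-assigned scaffolds 7 of 57 regions were held by all 4 HT lists alone, which is 12.3% beside 14% over all regions. All 4 PT lists alone held 17 (29.8%, beside 6.83%), and all 8 lists held 6 (10.5%, beside 2.41%). All 17 were on W-assigned scaffolds. The 7 HT regions lay on 7 different scaffolds, and the 6 common regions on scaffolds of chromosomes 1 and Z.

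**Figure D4:**
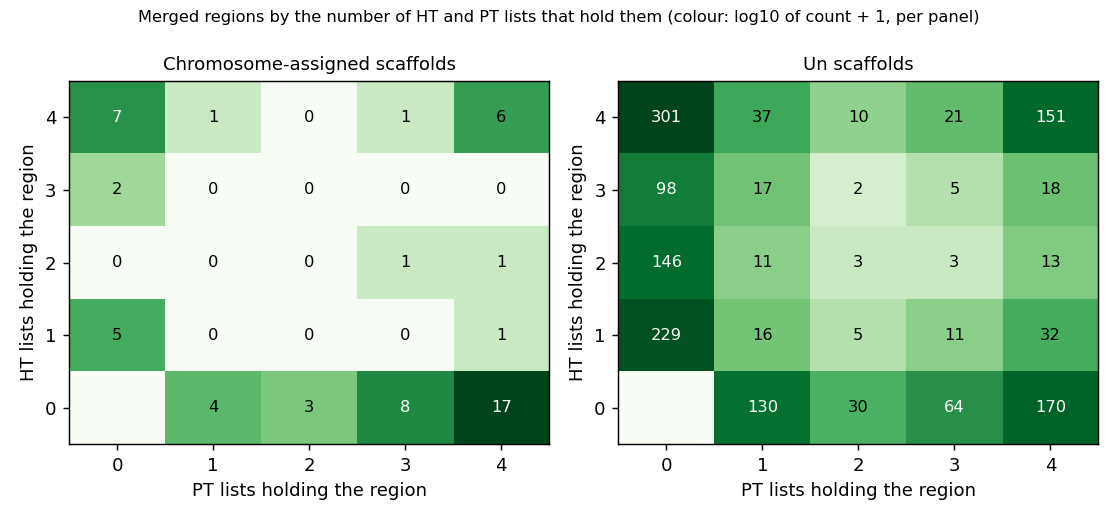
Number of merged regions by how many HT lists (vertical) and PT lists (horizontal) held them, on chromosome-assigned scaffolds and on Un scaffolds. On Un scaffolds 301 regions were in 4 HT lists alone, 170 in 4 PT lists alone and 151 in all 8, beside 229 in a single HT list and 130 in a single PT list, while on assigned scaffolds the 17 regions of the 4 PT lists form the fullest cell.

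Peaks on Un scaffolds were met by the other group more often than peaks on chromosomes. Of the Un peaks of the HT lists 36.0%, 34.8%, 36.2% and 36.5% overlapped a peak of any PT list by at least 1 bp, against 12.5% to 14.2% of HT peaks on placed chromosomes. Of the Un peaks of the PT lists 50.4%, 51.0%, 51.6% and 55.2% overlapped an HT peak, against 19.3% to 26.1% on placed chromosomes. The within-list difference was 26.5 points, higher in 8 of 8 lists (exact two-sided sign-flip permutation p = 0.00781, the smallest that 8 lists can give; adjusted p = 0.0117 over 6 tests). In this measure the lists of a group are set against the same pooled peaks, and the same overlaps enter the HT and the PT values. The 8 differences are therefore not independent. Where regions are dense, peaks also meet more readily by position alone, and the part of density was not tested.

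Chromosome-assigned scaffolds differed from placed chromosomes in the same measure by 21.4 points, again higher in 8 of 8 lists (exact two-sided sign-flip permutation p = 0.00781, adjusted p = 0.0117). The size depended on the group, with 44.4% to 52.9% of the HT peaks and 27.5% to 32.1% of the PT peaks met by the other group. Without chr1_NW_020109743v1_random and chrUn_NW_020110165v1, the scaffold with the most peaks of each class, the 21.4-point difference was 11.1 points and lost its call (exact permutation p = 0.0703). Without the scaffolds assigned to W or Z it was 48.6 points (exact two-sided sign-flip permutation p = 0.00781). The Jaccard index, the bases covered by both lists over those covered by either, averaged 0.628 within HT, 0.711 within PT and 0.229 across groups on Un scaffolds. On placed chromosomes it averaged 0.476, 0.441 and 0.0965 in the same order.

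Un peaks were wider than peaks on placed chromosomes as a class. Their median width was 568, 545, 550.5 and 547 bp in the HT lists, against 516, 505, 513 and 524 bp in the PT lists. The groups did not overlap and differed by 38.1 bp (exact two-sided permutation p = 0.02857, adjusted p = 0.0333). Over placed chromosomes the medians were 490 to 500 bp in HT and 476 to 489 bp in PT, and the within-list excess of Un scaffolds was 46.2 bp, with 8 of 8 lists higher (exact two-sided sign-flip permutation p = 0.00781, adjusted p = 0.0117).

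Some small placed chromosomes had list medians as wide, averaging 551 bp in HT and 676.5 bp in PT on chromosome 16, and 543.5 bp in HT and 546 bp in PT on chromosome 22. Width varied among the Un scaffolds. On chrUn_NW_020110165v1 the list medians averaged 765 bp in HT and 603 bp in PT. On chrUn_NW_020110162v1 it was 512 bp in HT and 407 bp in every PT list. On chrUn_NW_020110158v1 the order was the other way, at 556.5 bp in HT and 625 bp in PT. Peaks on chromosome-assigned scaffolds had median widths of 565.5 to 609 bp in HT and 523 to 532 bp in PT, a difference of 65.4 bp (exact two-sided permutation p = 0.02857, adjusted p = 0.0333). Without the scaffolds assigned to W or Z this turned to -555 bp (exact permutation p = 0.02857), so that class has no single direction in width. The call was also lost in the highest-scoring 50% of each list (14.75 bp, exact permutation p = 0.886), at equal list lengths (66 bp, exact permutation p = 0.229), without the scaffold with the most peaks (30.5 bp, exact permutation p = 0.114) and without any PT list (exact permutation p = 0.0571).

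Un peaks ranked above the middle of the list in HT and near it in PT. The score the authors' caller gave each peak was turned into a percentile within the whole list, where 100 is the highest score. The median Un peak stood at 67.8, 68.1, 67.1 and 69.1 in the HT lists, against 53.3, 48.4, 52.5 and 61.4 in the PT lists. HT was higher by 14.1 percentile points with no overlap (exact two-sided permutation p = 0.02857, adjusted p = 0.0333), and by 9.78 with equal list lengths. Without any 1 of the 4 HT lists the exact permutation p was 0.0571, with differences of 13.8 to 14.4 points. Relative to placed chromosomes the median Un peak stood 11.8 percentile points higher, in 7 of 8 lists (exact two-sided sign-flip permutation p = 0.0156, adjusted p = 0.0187); the excess was 18.4 to 20.4 points in the HT lists, against -1.68 to 12.2 points in the PT lists. Some small placed chromosomes also ranked high. List medians averaged 64.2 in HT and 63.4 in PT on chromosome 33, and 65.6 in HT and 74.8 in PT on chromosome 30. Others stood lower, at 41.7 in HT and 41.4 in PT on chromosome 21, and 48.9 in HT and 38.5 in PT on chromosome 26. Over Un scaffolds the means were 68.0 in HT and 53.9 in PT.

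The size and direction of the rank difference varied among scaffolds. On chrUn_NW_020110162v1 the median peak stood at percentile 78.2 in HT and 40.9 in PT, as means of the list medians. On chrUn_NW_020110164v1 it stood at 67.3 in HT and 47.8 in PT. On chrUn_NW_020110161v1 the group means were close, at 81.4 in HT and 78.3 in PT, with list medians of 72.4 to 88.0 in HT and 74.8 to 82.8 in PT. On chrUn_NW_020110163v1 the order was the other way, at 62.9 in HT and 76.6 in PT.

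Chromosome-assigned peaks had median percentiles of 76.8, 79.0, 70.2 and 84.9 in the HT lists, against 57.0, 46.5, 46.9 and 60.3 in the PT lists. The difference of 25.0 points (exact two-sided permutation p = 0.02857, adjusted p = 0.0333) turned to -7.99 points without the scaffolds assigned to W or Z (exact permutation p = 0.0571). The W-assigned scaffolds ranged widely in rank in PT: the mean of the list medians ran from 2.15 to 79.9 over the 19 scaffolds, with a median of 39.3, and lay below 50 on 12 of them. It was 66.2 on chrW_NW_020109823v1_random and 43.2 on chrW_NW_020109808v1_random. Relative to placed chromosomes the class stood 16.1 percentile points higher, in 6 of 8 lists (exact two-sided sign-flip permutation p = 0.0312, adjusted p = 0.0312), by 21.6 to 36.3 points in HT lists and -3.59 to 11.1 in PT lists. That call was lost in the highest-scoring 50% of each list (10.4 points, exact permutation p = 0.164). It was also lost without the scaffold with the most peaks (11.7 points, exact permutation p = 0.0859), and without any HT list or PT list 1 or 4 (exact permutation p = 0.0625). Without the scaffolds assigned to W or Z the class stood 35.0 points higher (exact two-sided sign-flip permutation p = 0.00781).

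The place of Un peaks along the ranking differed between the groups. Among the 100 highest-scoring peaks of a list, 12 to 17 lay on Un scaffolds in HT and 14 to 16 in PT. Among the 500 highest, 20.95 ± 1.18% did so in HT and 11.9 ± 0.872% in PT, and among the 1000 highest 18.7 ± 1.13% in HT and 11.7 ± 0.450% in PT (SD, n = 4 lists each). Among the 20 highest, 3 to 4 peaks per list lay on Un scaffolds in HT and 2 in PT. The HT and PT lists did not overlap at 20, 500, 1000 or 2000 peaks and overlapped at 100 and 5000. These cuts were chosen after the data were seen and carry no test.

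**Figure D5:**
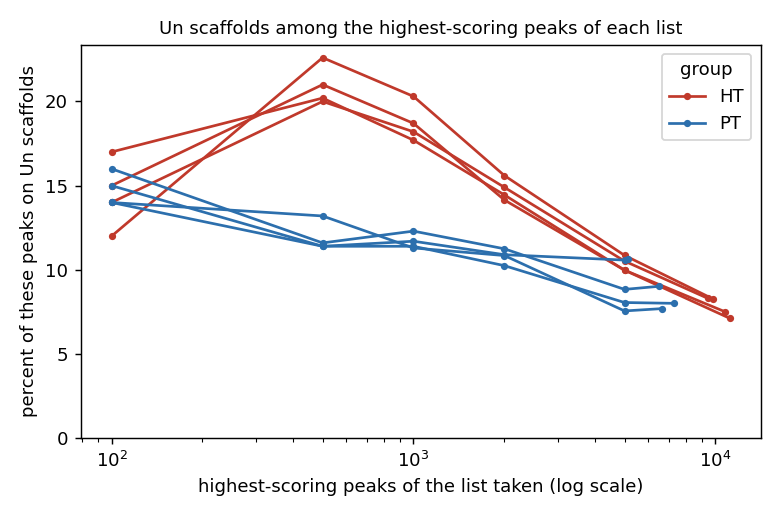
Percent of peaks on Un scaffolds (vertical) among the highest-scoring peaks of each list (horizontal, logarithmic), 1 line per list, from the 100 highest to the whole list. The HT lines lie above the PT lines from 500 to 2000 peaks, at 20% to 22.6% against 11.4% to 13.2% for the 500 highest.

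The second-highest peak of every list lay on an Un scaffold. In HT it was on chrUn_NW_020110161v1 and in PT on chrUn_NW_020110163v1, and both regions were held by all 8 lists. chrUn_NW_020110163v1:830198-834949 (galGal6), 4752 bp wide, had percentiles of 99.97 to 99.99 over the 8 lists and authors' scores of 2336.27 to 2815.38 in HT and 1726.52 to 1781.87 in PT. chrUn_NW_020110161v1:190423-192572, 2150 bp wide, had authors' scores of 2718.76 to 3058.28 in HT and 1500.9 to 1771.59 in PT. Next among the Un regions of all 8 lists were chrUn_NW_020110163v1:282543-284563 and chrUn_NW_020109838v1:22-1510. Scores rank peaks within a list and were not compared between lists.

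Of the Un regions held by HT alone, the highest in mean percentile was chrUn_NW_020110162v1:63104-63395, 292 bp wide, at a mean percentile of 99.3 over the 4 HT lists. It was followed by chrUn_NW_020110162v1:180901-182214, chrUn_NW_020110164v1:945491-945780 and chrUn_NW_020110165v1:58405-59240. Of the Un regions held by PT alone, the highest were chrUn_NW_020110095v1:26-1801 and chrUn_NW_020110164v1:1088518-1088787, both at a mean percentile of 98.0 over the 4 PT lists. Then came chrUn_NW_020110136v1:13159-14966 and chrUn_NW_020110136v1:5724-7762, on the scaffold that had 0 peaks in every HT list. HT-only and PT-only regions thus both occurred on chrUn_NW_020110164v1. Of its 253 regions, 52 were of the first kind, 35 of the second and 16 held by all 8 lists. Over all regions of the series the shares of these kinds were 14%, 6.83% and 2.41%.

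The same ranking on chromosome-assigned scaffolds put both regions of chr1_NW_020109742v1_random and regions of chr1_NW_020109743v1_random at the head of those held by all 8 lists. chr1_NW_020109742v1_random:13270-14229, 960 bp wide, held the best-ranked chromosome-assigned peak of each of the 8 lists, at ranks 21 to 28 in HT and 28 to 38 in PT. Regions of HT alone were led by chr13_NW_020109755v1_random:367-625, at a mean percentile of 90.3, and chr3_NW_020109747v1_random:2458-3149. Regions of PT alone were led by chrW_NW_020109824v1_random:5061-5498 and chrW_NW_020109823v1_random:20678-21177, at mean percentiles of 79.9 and 79.4. In each of these 4 one-group regions the 4 holding lists had identical peak ends.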

How the data were processed

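Peak lists of 8 CUT&Tag samples (4 HT, 4 PT; groups and replicate numbers from the titles) were analysed. Per the submitters' processing notes, Bowtie2 2.2.4, cutadapt 1.9.2 and the build galGal6 were used. The deposited peak names begin with MACS; for the caller's version and settings, control library, pooling, duplicates and multiply mapped reads, nothing is stated in the labels. A deposited list has 5 columns, sequence, start, end, name and the authors' score, whose scale is not stated and which runs from 40 to 3100. The scores served only to rank or filter within a list. Depth is unknown.

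Starts were raised by 1 base. Peaks that overlapped or touched were merged, and a list held a region with at least 1 bp. Group means were compared by exact two-sided permutation over 70 relabellings (14 tests), and scaffolds with placed chromosomes of the same list by exact sign flips over 8 lists (6 tests), each family adjusted by Benjamini-Hochberg. Peak number was tested for every sequence with a mean of at least 5 peaks (45 sequences). Since 0.02857 is the smallest p, a sequence passes that adjustment only because most sequences differ. Named scaffolds were the 6 per class with the most peaks and up to 5 called ones per class and direction, and the other tested Un scaffolds were added after their values were seen; named regions were the 4 per class and kind with the highest mean percentile. Members, lists and rule were chosen with earlier results of these data known. The replicate numbers were not taken to pair the lists. The code was checked on simulated lists. Tools were pandas 2.3.3 and numpy 2.4.6 under Python 3.11.15, with matplotlib 3.10.9 for plots.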

Additional observations from a re-analysis of the deposited data

Results flagged for a closer look

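In some groups of 4 lists a single list stood apart by Dixon's test at its 95% level, which was passed in 8 of the 48 groups tested, where chance gives about 1 in 20 and counts of few peaks pass easily. PT list 4 stood apart in the share of scaffold peaks that lay on chromosome-assigned scaffolds, at 5.19% against 6.20% to 6.40% in the other PT lists. It also stood apart in the share of chromosome-assigned peaks met by HT, at 32.1% against 27.5% to 28.2%. On chrUn_NW_020110162v1 it had 38 peaks against 48 to 50, on chr6_NW_020109751v1_random 0 against 1, and on chr1_NW_020109743v1_random 4 against 3. HT list 1 had the only W-assigned peak of HT, 1 against 0, and 5 peaks against 4 on chr1_NW_020109743v1_random. HT list 2 had 28 peaks against 29 on chrUn_NW_020110158v1.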

How the results depend on the processing

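Of 418 alternative values from alternatives set with the design, 358 stayed on the same side of their threshold with the same sign (counts: within 1.5 times). Of these settings, 8 leave out 1 list, which tests little when lists have ends in common. The causes of the exceptions were not tested unless the setting gives them. Differences are HT minus PT unless stated. In the highest-scoring 50% of each list, chromosome-assigned scaffolds differed by -4.25 peaks, -3 scaffolds with a peak, 14.75 bp in width and 27.4 points in percentile, none past the threshold, and stood 10.4 percentile points above placed chromosomes; the Un share turned to 0.828 points; 6 assigned and 89 Un regions were PT-only and 88 Un regions common, and the W-assigned difference kept its call at -10.75 peaks. With equal list lengths the assigned differences were 66 bp and 19.5 percentile points, the numbered-chromosome difference kept its call at 3.75 peaks, the Un differences were 73.25 peaks, -2 scaffolds and 1.43 points of the list, with 0 scaffolds called higher and 176 HT-only Un regions. Without the scaffold with the most peaks of each class the assigned width differed by 30.5 bp, the class stood 11.7 percentile points and 11.1 points in overlap with the other group above placed chromosomes, and 3 assigned regions were common. Without W- and Z-assigned scaffolds, which hold 20 of the 33, the assigned differences were 6.75 peaks, 5.25 scaffolds, -555 bp, -7.99 percentile points, -0.00117 points of the list and 0.246 points of scaffold peaks, and 0 assigned regions were PT-only. A minimum mean of 2 peaks gave 19 of 43 scaffolds called higher and 3 lower. Only regions with no shared peak ends, an alternative chosen after seeing the data, left 0 HT-only, 0 PT-only and 0 common assigned regions and 29, 3 and 5 Un regions. Over all regions it left 175, 23 and 22. Most regions kept by it were held by a single list, as were 9 of the 10 assigned ones, and can be of none of these kinds. At the other alternative settings regions were not counted over the whole series. Leaving out each list gave -19.3 to -15.3 assigned peaks, 60.4 to 74.9 bp in assigned width, 12.3 to 16.6 points in Un percentile (exact permutation p up to 0.0571 in each, without any HT list, any PT list and any HT list in that order) and 13.2 to 18.9 points in assigned percentile above placed chromosomes (exact permutation p up to 0.0625, without any HT list or PT list 1 or 4).

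With the replicate number as a block the differences were unchanged by construction: -16.75 peaks, -11.5 scaffolds, 65.4 bp, 25.0 percentile points, -0.382 points of the list and -3.69 points of scaffold peaks for assigned scaffolds, -23.5 peaks on W-assigned and 6.75 on numbered ones, and 242.75 peaks, 13.75 scaffolds, 38.1 bp and 14.1 percentile points for Un scaffolds. Their p is the smallest that exact sign flips of 4 pairs can give, and 0 scaffolds were called higher. Correlations of same-numbered lists over 366 scaffold regions found in both groups were 0.0270, -0.0636, -0.0518 and -0.0717, so the numbers were not taken to pair the lists; 1 of 4 HT lists and 0 of 4 PT lists correlated best with the list of the same number. Over all 30246 regions these correlations were -0.00128, 0.00735, 0.0102 and -0.00319. There HT lists 2 and 3 and PT list 3 correlated best with the list of the same number. Depth is unknown, and its effect on the number of peaks could not be examined.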
